A study of Mus musculus with 12 samples.

Results

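Primary hepatocytes were set against whole liver in wild-type (WT) mice. The comparison used the 6 WT arrays of the 12 in the series, 3 of liver and 3 of hepatocytes, chosen by the genotype and tissue in their labels and paired by replicate number. The mouse identifiers in the labels show that the liver and the hepatocyte array of each number came from the same mouse. WT mice were male C57BL/6 animals aged 7 to 8 weeks with the genotype Jnk1f/fJnk2+/+, so they carried floxed Jnk1 alleles and intact Jnk2, were littermates of the mutants, and ate standard chow freely. The other 6 arrays, used only in the last comparison, came from mice of the same sex, strain background and age called JNKΔhepa. These lacked Jnk2 in every cell and had lost floxed Jnk1 in cells expressing a Cre recombinase driven by the albumin promoter and the alpha-fetoprotein enhancer. How the hepatocytes were released from the liver, and whether they were cultured before RNA was taken, is not stated in the labels.

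Hepatocytes, the parenchymal cells of the liver, make most plasma proteins and carry out bile acid, drug, lipid and glucose metabolism. Whole liver also holds sinusoidal endothelial cells, Kupffer cells (the resident macrophages), stellate cells (vitamin A stores and the main source of fibrous matrix), bile duct cells, lymphocytes and blood. Hepatocytes differ along the lobule: those at the central vein are kept in their state by Wnt signals from neighbouring endothelium, and those at the portal tract by the incoming blood. Freeing cells from tissue is widely known to switch on immediate early genes, which need no new protein for their transcription, and AP-1 factors such as Fos and Jun are their best known members; JNK, the kinase that Jnk1 (Mapk8) and Jnk2 (Mapk9) encode, phosphorylates Jun.

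Values are log2 expression levels, on which a difference of 1 is a doubling. The deposited medians were 4.09 on each WT liver array and 3.24 to 3.28 on the hepatocyte arrays, so the 6 arrays were quantile-normalised together before any comparison. After that the arrays correlated at 0.994 to 0.996 among livers, at 0.994 to 0.995 among hepatocyte preparations and at 0.979 to 0.986 across the tissues, each over all probe sets. With mouse as a block, 3927 of 18820 genes (20.9%) passed an adjusted p of 0.05 (limma, Benjamini-Hochberg over all genes). Of these, 1747 (9.28% of all genes) were higher and 2180 (11.6%) were lower in hepatocytes, and 698 (3.71%) differed at least 2-fold. The median difference over all genes was 0.02. The arrays of the tissues did not overlap for 7967 genes (42.3%). Leaving out mouse 1, 2 or 3 gave 2217, 2511 and 2277 calls. With array medians centred in place of quantile normalisation the median gene rose by 0.26, and 7816 of 9590 calls were higher, against 1747 of 3927 here. The table holds no detection calls, so a reading below 3.68, the median of all probe sets after normalisation, is called dim. A fold against a dim group is written as at least, and where both tissues had dim arrays the size is not exact. The labels do not say whether hepatocytes of different mice were prepared on different days, and 3 pairs limit the precision.

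Immediate early genes were among the highest rises. Of 37 measured members of a list of AP-1 and immediate early genes, 16 were higher in hepatocytes (16, 17 and 14 without mouse 1, 2 and 3), against 9.28% of all genes, and 5 were lower (2, 4 and 4). The list median was 0.28. Among the members with the largest rises were Fos and Jun, the partners of the AP-1 dimer, Egr1, a zinc finger transcription factor, Atf3, a stress-induced repressor of the ATF family, and Nr4a1, an orphan nuclear receptor. RefSeq promoters of build GRCm38.p6 were found for 13 of the 16 members that rose. The 250 bases before the start site are shown for Fos and Jun, whose rises were largest among those found, and for Zfp36 and Csrnp1, which carried matches to a CArG box and to TGANTCA. Capitals mark a match to the AP-1 motif TGANTCA, the CArG box (the site of serum response factor) or the NF-kB site, searched on both strands.
Fos, chr12:85473640-85473889, plus strand: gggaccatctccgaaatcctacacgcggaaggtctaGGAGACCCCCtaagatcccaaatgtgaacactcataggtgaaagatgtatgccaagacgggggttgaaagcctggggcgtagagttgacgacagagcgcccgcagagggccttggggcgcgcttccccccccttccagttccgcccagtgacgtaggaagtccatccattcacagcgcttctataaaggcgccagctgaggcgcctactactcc
Jun, chr4:95052223-95052472, minus strand: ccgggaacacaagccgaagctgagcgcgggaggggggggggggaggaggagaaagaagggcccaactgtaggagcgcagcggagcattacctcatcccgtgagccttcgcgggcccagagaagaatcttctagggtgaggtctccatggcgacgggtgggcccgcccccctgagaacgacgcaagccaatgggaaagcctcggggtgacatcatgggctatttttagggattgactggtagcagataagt
Zfp36, chr7:28379229-28379478, minus strand: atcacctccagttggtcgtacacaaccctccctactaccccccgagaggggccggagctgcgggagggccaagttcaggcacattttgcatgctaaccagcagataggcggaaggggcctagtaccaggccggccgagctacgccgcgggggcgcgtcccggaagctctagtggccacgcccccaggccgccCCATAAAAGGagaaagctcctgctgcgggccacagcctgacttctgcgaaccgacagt
Csrnp1, chr9:119983024-119983273, minus strand: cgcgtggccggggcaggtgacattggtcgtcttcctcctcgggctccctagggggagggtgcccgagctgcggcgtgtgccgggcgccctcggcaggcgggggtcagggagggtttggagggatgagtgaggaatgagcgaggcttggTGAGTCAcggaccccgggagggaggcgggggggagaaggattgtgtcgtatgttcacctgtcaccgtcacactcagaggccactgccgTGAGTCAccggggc

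In these 250-base windows, 1 of the 13 members with a promoter (Csrnp1) held TGANTCA, against 6.75% of all 32851 windows in the table. A CArG box was matched in 1 of the 13 (Zfp36), against 1.47% of all windows, and an NF-kB site in 2 (Fos and Maff), against 7.25%. A member counted if any of its windows held a match, and Csrnp1 and Maff have several. The share of all windows counts each window singly, so the 2 measures are not alike. The capitals in Fos mark an NF-kB match on the opposite strand, those in Zfp36 the CArG box 58 to 49 bases before the start, and those in Csrnp1, shown for 1 of the 4 start sites listed, the AP-1 motif at 102 to 96 and again at 14 to 8 bases before the start. The Jun window held no match to these patterns. Longer or variant forms of the sites, and bases beyond the 250, were not searched. The motifs do not overlap each other in these windows, and a match is only a description of the letters.

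Fos read 2.51, 2.67 and 2.43 in the livers of mice 1, 2 and 3, all dim, and 6.86, 4.83 and 6.49 in their hepatocytes. Hepatocytes of mouse 2 were the lowest of the 3, and the tissues did not overlap. The mean difference was 3.52 ± 0.39 (SE, 3 pairs), at least 11.5-fold (adjusted p = 0.00192), and 4.201 without mouse 2. Egr1 was likewise lowest in the hepatocytes of mouse 2, with 4.72, 4.61 and 4.47 in liver and 8.40, 6.53 and 8.59 in hepatocytes, a rise of 3.24 ± 0.38 (9.48-fold, adjusted p = 0.00234), or 3.90 without mouse 2. Jun rose in each mouse, from 6.04, 6.46 and 6.09 to 9.03, 8.66 and 9.12, a difference of 2.74 ± 0.18 (6.69-fold, adjusted p = 0.000467). Atf3, near the dim limit in liver at 3.67, 3.56 and 3.77, read 6.14, 5.70 and 6.52 in hepatocytes, at least 5.46-fold higher. Nr4a1 was dim in all 3 livers (3.29 to 3.34) and read 5.63, 4.93 and 5.91 in hepatocytes, at least 4.51-fold higher. For Fos, Egr1, Jun, Atf3 and Nr4a1 the hepatocytes of mouse 2 were the lowest of the 3.

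**Figure D1:**
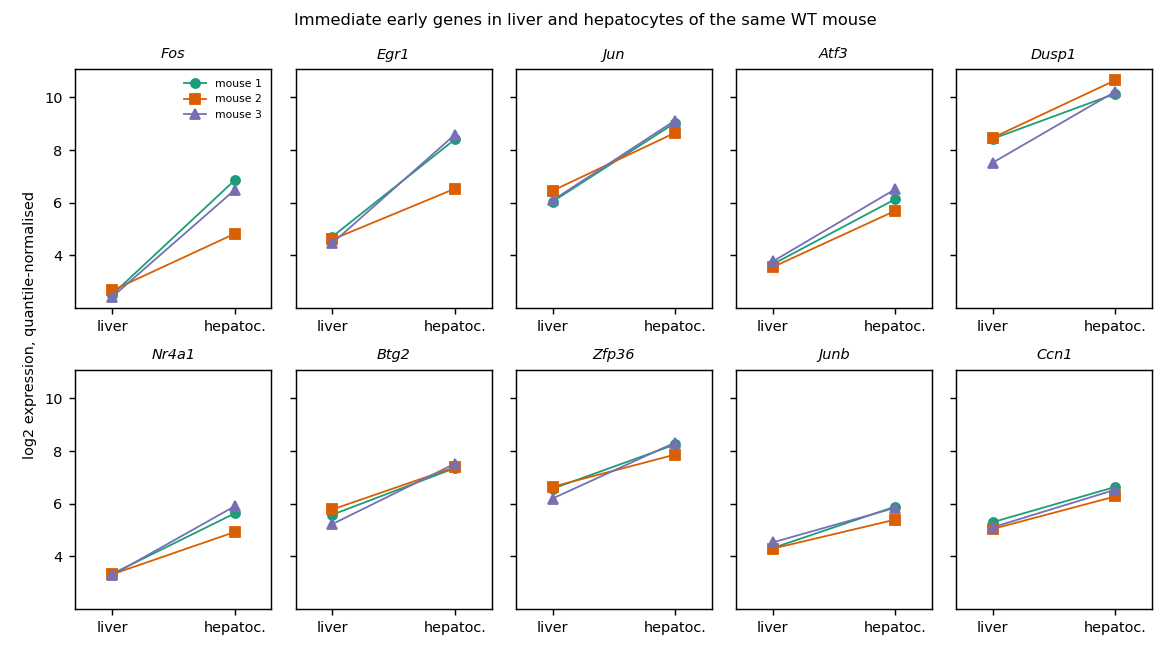
Log2 expression (quantile-normalised, y axis) of 10 immediate early genes in liver and hepatocytes, with a line joining the 2 arrays of each WT mouse. Every line rises, from 2.51 to 6.86 for Fos in mouse 1, and mouse 2 ends lowest for Fos (4.83) and Egr1 (6.53).

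The AP-1 partners Junb and Jund also rose, by 1.33 ± 0.12 and 0.82 ± 0.15, and so did the small Maf protein Maff, by 1.20 ± 0.16, a size that is not exact because Maff was dim in both tissues. Dusp1, a phosphatase that inactivates MAP kinases including JNK, read 8.43, 8.47 and 7.53 in liver and 10.14, 10.65 and 10.22 in hepatocytes, 4.58-fold higher (adjusted p = 0.000716). Zfp36, which speeds the decay of AU-rich mRNAs, rose by 1.67 ± 0.17, and the antiproliferative Btg2 by 1.89 ± 0.15. Ier2, Klf10 and Ccn1, a matricellular protein, rose by 1.25, 0.95 and 1.33. Btg1 and Csrnp1 rose by 0.53 and 0.60, but these calls were lost without mouse 3 (adjusted p = 0.0639 for Btg1 and 0.111 for Csrnp1), the second also without mouse 2. Fosb, Fosl2, Egr2, Egr3, Arc, Myc, Klf4 and Ier3 did not pass the test, with differences from -0.45 (Ier3) to 0.46 (Fosb). The 5 lower members were Gem, a small GTPase, at -1.38, Rhob at -0.63, Batf3 and Batf at -0.79 and -0.38, and Maf at -0.61. Batf3 lost its call without mouse 1 (adjusted p = 0.0552), Maf without mouse 1 or 2 (0.0684 at most) and Batf whichever mouse was left out (0.123 at most). Batf and Batf3 are known from lymphoid and dendritic cells, and Maf also stands in the endothelial list used below.

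Of 11 measured MAP kinase phosphatases, 4 rose (36.4%, against 9.28% of all genes) and 1 fell. Dusp6, which acts on ERK, rose from 6.89, 6.38 and 7.20 to 8.29, 8.04 and 8.13 (2.51-fold, adjusted p = 0.00208). Dusp14 and Dusp9 rose by 0.52 and 0.54, but both calls were lost without mouse 1 (adjusted p = 0.0632 and 0.0821), which left 2 of the 4. The Dusp9 call was also lost without mouse 3 (0.0676). Dusp7 fell by 0.99. On a list of p53 targets and Gadd45 genes, 6 of 22 measured were higher (27.3%, against 9.28% of all genes) and none lower. Without mouse 1, 2 and 3 the higher members numbered 6, 5 and 5. Btg2, counted among the 6, also stands in the immediate early list. Of these, Cdkn1a, the p21 inhibitor of cell cycle kinases, read 8.13, 7.01 and 5.13 in liver and 8.95, 10.39 and 8.74 in hepatocytes. Its livers were spread wider than its hepatocytes, and the rise of 2.61 ± 0.50 (adjusted p = 0.0139) was lost without mouse 3 (0.0682) and was 3.50 without mouse 1. The 3 Gadd45 stress sensors rose together, Gadd45g by 2.46 ± 0.34, Gadd45b by 1.59 ± 0.13 and Gadd45a by 1.25 ± 0.12. Mdm2, Ccng1, Bbc3 and Pmaip1, further p53 targets, gave -0.29, -0.08, -0.01 and 0.02 and did not pass. Trp53inp1 rose by 0.79, a call that was lost without mouse 2 or 3 (0.1 at most).

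Other large rises belonged to metabolism and secretion. Ppp1r3g, a glycogen-targeting subunit of protein phosphatase 1, was dim in all 3 livers (3.01, 3.06 and 3.35) and read 6.34, 6.34 and 6.19 in hepatocytes, at least 8.87-fold higher (adjusted p = 0.000314). Igfbp1, a secreted binder of insulin-like growth factors that rises in fasting and stress, went from 7.63, 8.31 and 8.64 to 10.80, 10.62 and 10.82, 5.88-fold (adjusted p = 0.000559). Chrna4, a nicotinic receptor subunit, rose 5.34-fold in WT hepatocytes, from 4.78, 5.53 and 5.05 to 7.05, 8.07 and 7.49. The hepatocyte arrays of these 3 genes lay above every liver array, which the rule for naming the 20 largest rises required. Over all genes 21.3% had hepatocyte arrays above every liver array. Further rises in the 20 largest were Defb46 (2.27), Sytl5 (1.67), the water channel Aqp8 (1.60), the tubulin Tubb2a (1.81) and the mitochondrial carrier Slc25a25 (1.55), and the mean level of Defb46 in liver was dim.

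Most genes on the stellate cell, Kupffer cell and endothelial lists were lower in hepatocytes. In bulk samples, fewer cells of a type and less RNA per cell cannot be told apart, and this holds for each of the following lists. Among stellate cell and fibroblast genes 26 of 29 measured were lower and none higher, against 11.6% of all genes that were lower, with a median of -1.49 (25 lower without each mouse in turn). For Kupffer cells and macrophages 29 of 34 were lower (30, 29 and 26 without mouse 1, 2 and 3; median -1.19), and for sinusoidal endothelium 40 of 43 (32, 30 and 27; median -0.88). MHC class II and dendritic genes gave 11 of 17 lower (median -0.95), extracellular matrix genes 23 of 34 (median -0.94) and lymphocyte genes 25 of 38 (median -0.62). The median over all genes was 0.02, and the signs of these 6 medians were kept under every normalisation tried.

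**Figure D2:**
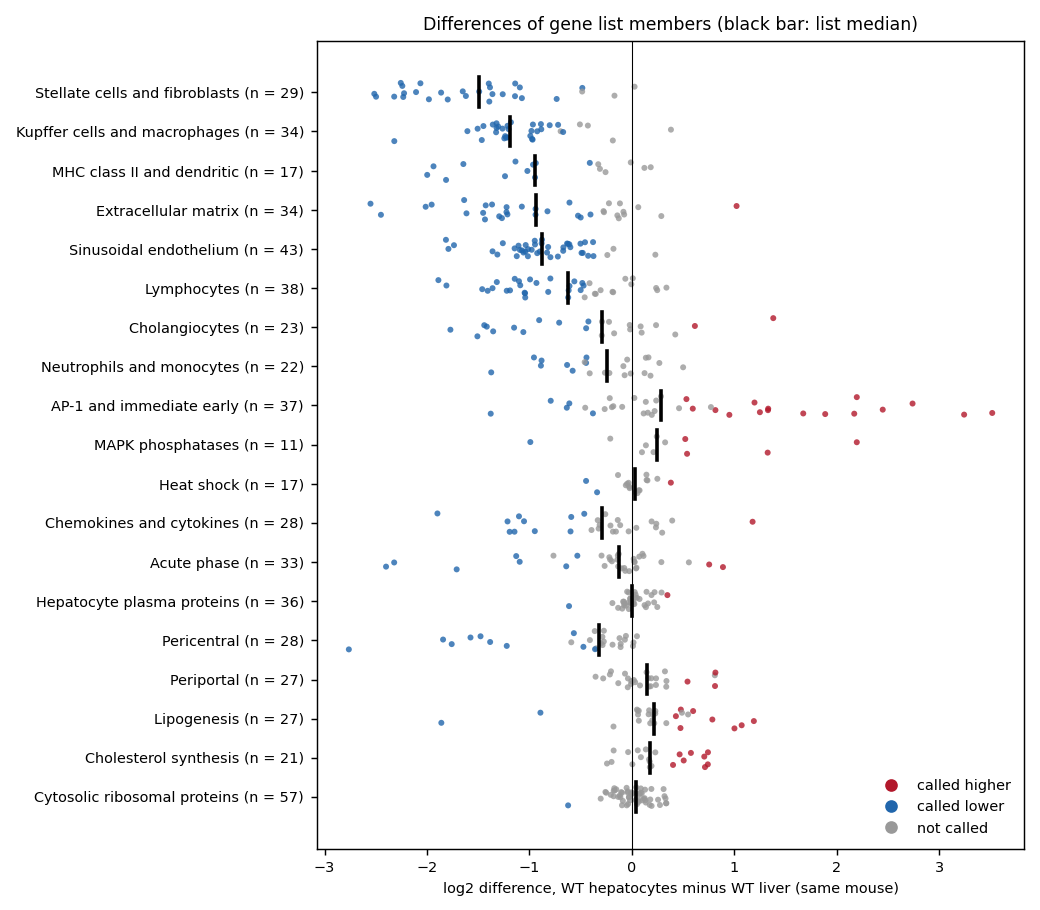
Log2 difference of WT hepatocytes minus WT liver (x axis) for each measured member of 19 gene lists, coloured by call, with a black bar at the list median. Medians run from -1.49 for stellate cells and fibroblasts to 0.28 for AP-1 and immediate early genes, and plasma proteins of hepatocytes sit at 0.00.

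Summed over fixed marker genes on the linear scale, the 8 stellate markers gave 2702 to 2871 in the 3 livers and 676 to 895 in hepatocytes. The 8 Kupffer markers gave 2076 to 2927 and 761 to 1264, and the 8 sinusoidal endothelial markers 2897 to 3290 and 1485 to 1976. None of these ranges overlapped. On this scale every gene adds a positive value, so the sums do not show whether cells of these types remained. The 6 measured hepatocyte markers gave 31502 to 31797 in liver and 31346 to 31917 in hepatocytes, ranges that overlap. These sums rest on readings near the top of the arrays, where quantile normalisation gives both tissues like values. Their likeness is therefore set in part by the scaling, and Alb, Apoa1 and Cps1 rose under other scalings, as given below. For lymphocytes (7 measured markers) the sums were 56.6 to 80.5 and 31.6 to 33.8, and all 7 were dim in hepatocytes. For bile duct cells (5 measured) they were 88.1 to 110 and 92.3 to 101, and 4 of the 5 were dim in hepatocytes. The 4 measured neutrophil markers summed to 26.7 to 34.9 and 20.6 to 22.7. Erythroid sums were higher in hepatocytes without overlap, 294 to 329 against 184 to 286 in the livers, over 2 measured markers (Alas2 and Slc4a1), of which Slc4a1 alone gave -0.59 (lost without mouse 1 or 2, adjusted p = 0.086 at most).

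**Figure D3:**
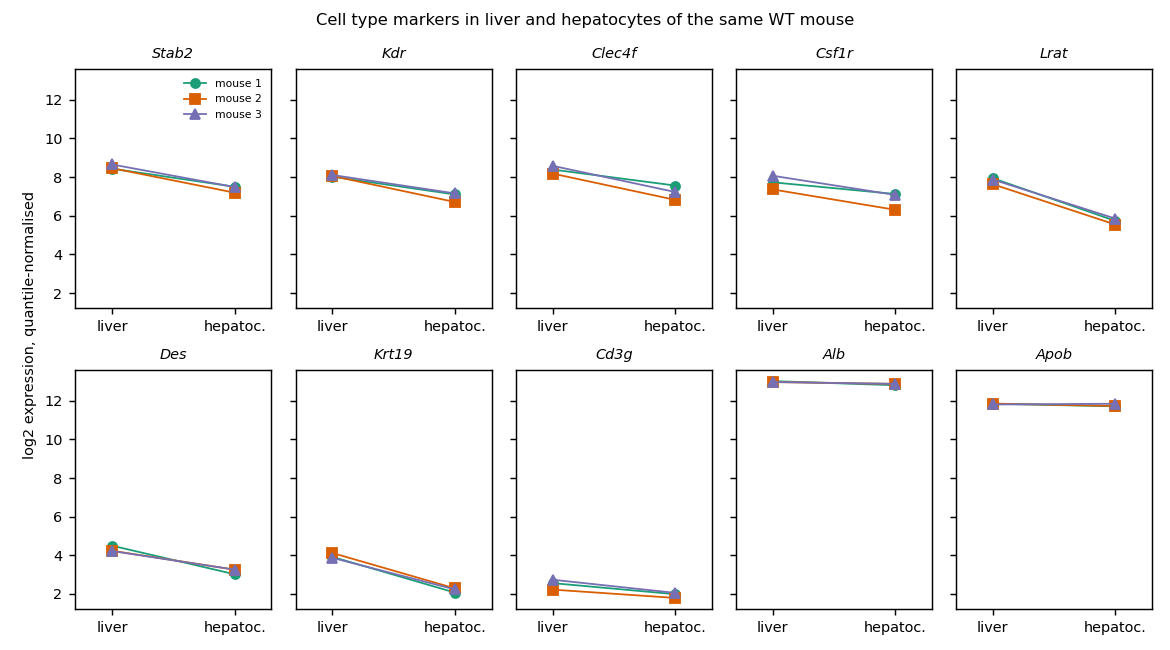
Log2 expression (quantile-normalised, y axis) of 10 cell type markers in liver and hepatocytes, with a line joining the 2 arrays of each WT mouse. Endothelial (Stab2, Kdr), Kupffer (Clec4f, Csf1r) and stellate (Lrat, Des) markers fall. Krt19 falls too, 1 of 3 lower among 5 measured bile duct markers, whose sums overlap between the tissues. The T cell marker Cd3g falls with a call lost without mouse 1 or 3 (adjusted p = 0.0501 and 0.0565). The hepatocyte genes Alb (12.97 to 13.01 in liver, 12.80 to 12.87 in hepatocytes) and Apob stay near their level on this scaling.

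Within the stellate list, Lrat, the enzyme that esterifies vitamin A for storage, read 7.94, 7.63 and 7.87 in liver and 5.73, 5.54 and 5.85 in hepatocytes, 4.31-fold lower (adjusted p = 0.000314). Reln, Dcn, Cygb and the endothelin receptor Ednrb fell by 1.98, 1.86, 2.22 and 2.23. The growth factor receptors Pdgfrb and Pdgfra were at least 5.71-fold and 4.73-fold lower, since their hepatocyte readings reached the dim range (3.48 to 4.32 for Pdgfrb). Des and Acta2, contractile and filament genes, fell by 1.14 and 1.80. Hgf, the hepatocyte growth factor that stellate cells secrete, fell by 1.40 ± 0.18, and Gfap, dim in both tissues, gave 0.03 and did not pass. The sharpest fall of any named gene was that of Dpt (dermatopontin, a matrix protein), from 5.78, 5.73 and 5.14 to 1.83, 2.01 and 1.95, at least 12.3-fold. Timp2 and Bgn, a protease inhibitor and a proteoglycan, were 5.86-fold and 4.04-fold lower, Efemp1 5.46-fold and Fbln5 at least 5.65-fold. Collagens Col1a1, Col1a2, Col3a1 and Col6a3 fell by 1.07, 0.94, 1.36 and 1.61. Col4a1, Col5a2, Col18a1 and fibronectin (Fn1) did not pass (-0.14, -0.12, 0.29 and -0.08). Col15a1, alone of the 34 measured matrix genes, was higher, at 3.90, 3.58 and 3.83 in liver and 4.70, 4.79 and 4.90 in hepatocytes (at least 2.03-fold, adjusted p = 0.00206).

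Among Kupffer cell genes, the complement receptor Vsig4 read 9.73, 9.44 and 9.84 in liver and 8.30, 7.49 and 8.40 in hepatocytes, 3.04-fold lower (adjusted p = 0.00072). Clec4f, a lectin of mouse Kupffer cells, fell 2.27-fold, from 8.39, 8.18 and 8.58 to 7.56, 6.82 and 7.23. Hepatocytes of mouse 2 were the lowest for both. C1qa, C1qb and C1qc, the chains of complement C1q, fell by 0.98, 1.33 and 1.46, Adgre1 (F4/80) by 1.45, Cd68 by 1.32, Cd163 by 1.51 and the receptor Csf1r by 0.88. Spic, a transcription factor of iron-recycling macrophages, was at least 4.99-fold lower. Marco, dim on some arrays of both tissues, gave -0.19 ± 0.25 and did not pass, and so did Hmox1 at -0.51. The antigen-presenting genes H2-Aa, H2-Ab1 and H2-Eb1 fell by 1.94, 1.64 and 2.00 and their chaperone Cd74 by 1.14.

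Sinusoidal endothelial genes fell less far than stellate genes in their median, -0.88 against -1.49, a difference between lists that was not tested. The scavenger receptor Stab2 read 8.43, 8.46 and 8.65 in liver and 7.50, 7.19 and 7.48 in hepatocytes, 2.18-fold lower (adjusted p = 0.00123). The VEGF receptor Kdr fell from 8.02, 8.06 and 8.11 to 7.10, 6.71 and 7.15, 2.10-fold. Pecam1 fell by 1.11, Lyve1 by 1.36 and Cdh5 by 0.98, and the lectin Clec4g by 0.72. Gpr182 fell by 0.63, a call that was lost without mouse 2 or 3 (adjusted p = 0.0549 at most). Vwf and Cd34, which mark larger vessels, were at least 3.46-fold and 3.33-fold lower. The 3 list members that did not pass were Gata4 (-0.24), Sox17 (-0.18) and Clec4b1 (0.23).

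Genes of rarer cells were often dim. Dim on every array were 8 of 23 measured bile duct genes, 23 of 38 lymphocyte genes and 19 of 22 neutrophil and monocyte genes. So were 5 of 13 erythroid and platelet genes and 10 of 15 mesothelial, muscle and nerve genes. Of the 23 bile duct genes 11 were lower (8, 9 and 9 without mouse 1, 2 and 3) and 2 higher, with a median of -0.29. These shares were 47.8% and 8.70%, against 11.6% and 9.28% of all genes. Krt19, a duct keratin, read 3.92, 4.12 and 3.87 in liver and 2.07, 2.29 and 2.24 in hepatocytes, at least 3.41-fold lower (adjusted p = 0.000439). Epcam fell by 1.15, in the dim range of both tissues. Sox9, a duct transcription factor also present in some portal hepatocytes, gave 0.42 ± 0.12 and did not pass (adjusted p = 0.0539). Krt23, a keratin inducible in hepatocytes, went the other way, from 2.33, 2.44 and 2.70 to 4.03, 3.79 and 3.79, at least 2.60-fold higher. Of lymphocyte genes, the cytotoxic granule gene Nkg7 fell by 1.89, the B cell receptor chain Cd79a by 1.41 and the T cell receptor chain Cd3e by 1.04, sizes that are not exact. Of 22 neutrophil and monocyte genes 8 were lower (7, 5 and 3 without mouse 1, 2 and 3) and of 13 erythroid and platelet genes 4, among them the platelet chemokines Ppbp and Pf4 at -1.30 and -0.93. The red cell enzyme Alas2, which liver also expresses at a low level, gave 0.40 and did not pass. Of 15 mesothelial, muscle and nerve genes 8 were lower, led by Gpm6a at -2.15. The shares lower were 36.4% (neutrophil and monocyte), 30.8% (erythroid and platelet) and 53.3% (mesothelial, muscle and nerve), against 11.6% of all genes.

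Few genes of the stress and inflammation lists were higher in hepatocytes. Of 17 measured heat shock genes 1 was higher (Ahsa1, 0.38) and 2 lower (Hspb1, -0.45, and Dnaja1, -0.34), and each of these 3 calls was lost whichever mouse was left out (adjusted p up to 0.196, 0.141 and 0.177). The shares of 5.88% higher and 11.8% lower were near the 9.28% and 11.6% of all genes. The constitutive chaperone Hspa8 gave 0.15 and the stress-inducible Dnajb1 and Hsph1 0.06 and 0.14. Hspa1a, Hspa1b, Hsp90ab1 and Hsf1 were on the list but not among the measured genes. Of 22 NF-kB subunits, feedback inhibitors and targets none was higher and 4 were lower: Tifa (-1.83), Vcam1 (-1.25), Icam1 (-1.14) and Cd40 (-0.99). The share lower was 18.2%, against 11.6% of all genes. The NF-kB inhibitors Nfkbia and Tnfaip3, which are themselves NF-kB targets, gave 0.38 ± 0.12 and 0.01 ± 0.12 and did not pass.

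Of 28 measured chemokines and cytokines, 10 (35.7%) were lower (7, 8 and 8 without mouse 1, 2 and 3) and 1 was higher. The higher member was Cxcl1, a neutrophil attractant that hepatocytes can make. It read 4.69, 4.75 and 5.47 in liver and 6.62, 5.33 and 6.50 in hepatocytes, so hepatocytes of mouse 2 lay below the liver of mouse 3 and the tissues overlapped. The rise of 1.18 ± 0.24 (adjusted p = 0.0162) was lost without mouse 3 (0.0571). Il1b was at least 3.73-fold lower, Tgfb1, Csf1, Cxcl16 and Cxcl12 fell by 1.21, 1.19, 1.15 and 1.05, and Tnf, Il6 and Ccl2 did not pass (-0.33, -0.21 and 0.19). The endothelial, Kupffer and stellate marker sums given above fell in the same hepatocyte arrays, and their part in these falls was not tested. Interferon-stimulated genes gave 8 lower of 30 (3, 5 and 2 without mouse 1, 2 and 3), led by Ifit2 at -1.28. The share lower was 26.7%, against 11.6% of all genes.

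Acute phase genes, which hepatocytes make under interleukin 6 and interleukin 1, were divided. Of 33 measured, 7 were lower (5, 9 and 5 without mouse 1, 2 and 3) and 2 higher (2, 2 and 1). These shares were 21.2% and 6.06%, against 11.6% and 9.28% of all genes. Saa2, a serum amyloid, read 8.14, 7.94 and 8.79 in liver and 5.55, 6.40 and 5.72 in hepatocytes, 5.28-fold lower (adjusted p = 0.00191). Lcn2, a binder of bacterial iron carriers, fell from 9.05, 7.57 and 9.09 to 6.36, 6.25 and 6.14, 4.99-fold, and Orm2 and Orm3, acid glycoproteins, by 1.71 and 1.13. In each of these genes the tissues did not overlap, as in 21.1% of all genes with hepatocytes lower. Socs3, a feedback inhibitor of interleukin 6 signals, rose by 0.76, a call lost without mouse 1 or 3 (adjusted p = 0.138 at most), and the fibrinogen chain Fga by 0.89 ± 0.12. Fgb and Fgg gave 0.03 and 0.02, haptoglobin (Hp) -0.30 and hepcidin (Hamp) -0.27, and none of these passed.

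Actin, tubulin and adhesion genes were mixed. Of 48 measured cytoskeleton and annexin genes 15 were lower and 4 higher, with a median of -0.22 that turned to 0.04 when array medians were centred in place of quantile normalisation. The lower members included Vim (-1.81), Flna (-1.91), Myl9 (at least 3.96-fold), Anxa1 (-1.74), Anxa2 (-1.16) and Tmsb4x (-1.62), most of which are abundant in mesenchymal, endothelial or blood cells. The hepatocyte keratins Krt8 and Krt18 and the actin Actb gave 0.12, 0.27 and 0.06 and did not pass. The tubulins Tubb2a and Tubb2b were higher. Tubb2a read 7.14, 7.15 and 5.42 in liver and 8.45, 8.57 and 8.12 in hepatocytes, a rise of 1.81 ± 0.26 (adjusted p = 0.0051) in which the liver of mouse 3 stood apart, and Tubb2b rose by 0.64. S100a10, a partner of annexin A2, rose by 0.73. YAP and TEAD target genes gave 10 lower and 2 higher of 26 (38.5% and 7.69%, against 11.6% and 9.28% of all genes). Ccn2 and Igfbp3, which stellate and endothelial cells also make, fell 2.58-fold and 4.62-fold, and the 2 that rose, Ccn1 and Gadd45b, also stand in the immediate early and p53 lists.

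Plasma protein genes of hepatocytes were read close to their liver level after quantile normalisation. Of 36 measured plasma protein genes 1 was higher (F11, 0.35) and 1 lower (Pros1, -0.61), with a median of 0.00, and the F11 call was lost whichever mouse was left out (adjusted p up to 0.162). Alb, at 13.01, 12.97 and 12.97 in liver and 12.80, 12.87 and 12.87 in hepatocytes, gave -0.13 ± 0.10 (adjusted p = 0.368). Apob, Apoa1, Fgb, Cps1 and Ttr gave -0.07, -0.03, 0.03, -0.01 and 0.22 and none passed. These small values hang on the scaling: with the deposited values shifted so that the median gene difference is 0, Alb, Apoa1 and Cps1 became 0.38, 0.41 and 0.42 and each passed. Among 26 hepatocyte transcription factors 1 was higher and 4 were lower (1, 3 and 1 without mouse 1, 2 and 3). These shares were 3.85% and 15.4%, against 9.28% and 11.6% of all genes. Nr0b2, the bile acid-induced repressor SHP, rose from 7.32, 7.45 and 7.21 to 8.58, 8.46 and 8.33 (2.19-fold, adjusted p = 0.000997). The 4 lower factors, Nr2f2, Rxra, Nr1h4 and Nr1h3, fell by 0.57, 0.50, 0.48 and 0.37, and each call was lost without at least 2 of the 3 mice (adjusted p up to 0.156). Hnf4a, Cebpa and Foxa2 gave -0.18, -0.26 and -0.02.

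Of 28 measured pericentral genes, those of the central vein zone, 10 were lower in hepatocytes (35.7%, against 11.6% of all genes) and none higher, with 8, 9 and 6 lower without mouse 1, 2 and 3. Their median of -0.32 kept its sign under every setting tried, but was -0.04 with array medians centred and -0.30 with the median gene difference set to 0. Of 27 measured periportal genes 3 were higher (11.1%, near the 9.28% of all genes) and none lower (2, 4 and 2 higher without mouse 1, 2 and 3), with a median of 0.14 that was 0.56 and 0.30 under the same settings. The difference between these lists was not tested. Slc1a2, the glutamate transporter of the hepatocytes around the central vein, read 10.0003, 9.68 and 9.93 in liver and 7.15, 7.04 and 7.13 in hepatocytes, 6.79-fold lower (adjusted p = 0.000314). Glul, glutamine synthetase of the same narrow rim of cells, fell from 11.55, 11.29 and 11.52 to 9.91, 9.89 and 9.84, 2.98-fold (adjusted p = 0.000488). In both genes the tissues stood well apart and the arrays within a tissue were close together.

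**Figure D4:**
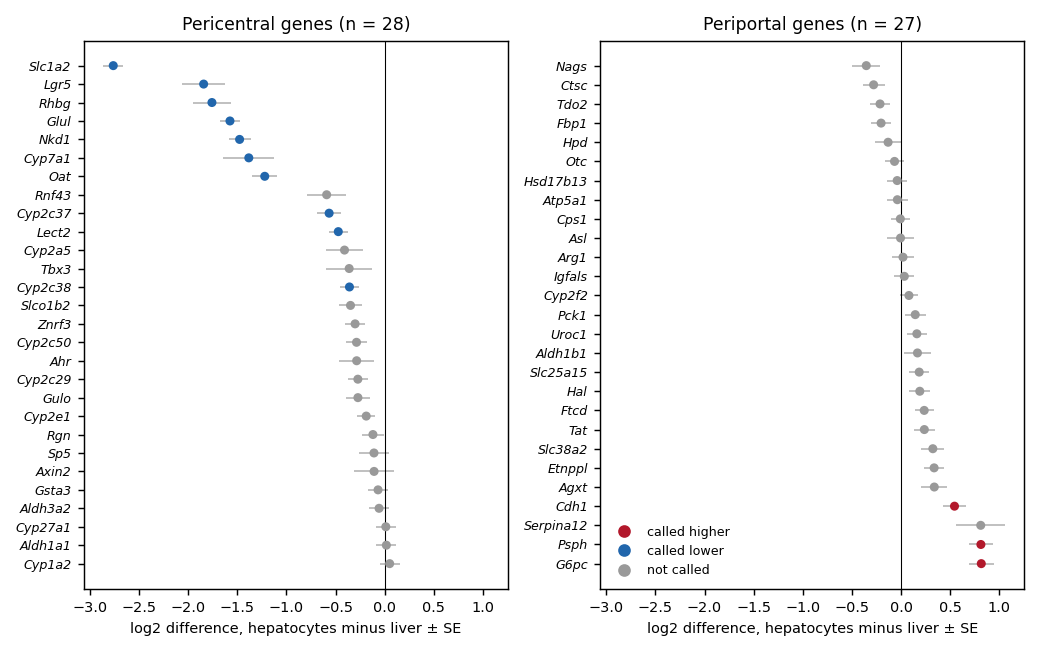
Log2 difference of WT hepatocytes minus WT liver ± SE (x axis, 3 pairs) for 28 pericentral and 27 periportal genes, coloured by call. Pericentral values run from -2.76 (Slc1a2) to 0.05 (Cyp1a2), and periportal values from -0.35 (Nags) to 0.82 (G6pc).

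The Wnt receptor gene Lgr5, the Wnt target Nkd1, the ammonium transporter Rhbg and ornithine aminotransferase (Oat) fell by 1.84, 1.48, 1.76 and 1.22. Cyp7a1, the rate-limiting enzyme of bile acid synthesis, read 10.91, 10.25 and 10.41 in liver and 8.84, 9.70 and 8.87 in hepatocytes, 2.61-fold lower (adjusted p = 0.0132), and lost its call without mouse 3 (0.0675). Cyp2c37, Lect2 and Cyp2c38 fell by 0.57, 0.47 and 0.36, calls that were lost without at least 2 of the 3 mice (adjusted p up to 0.162). Cyp2e1 and Cyp1a2, pericentral enzymes found over a wider zone, gave -0.19 ± 0.09 and 0.05 ± 0.10 and did not pass, nor did the Wnt target Axin2 at -0.11. The Wnt-side ligands of sinusoidal and central vein endothelium were lower too. Rspo3 read 5.74, 5.87 and 5.63 in liver and 4.10, 3.64 and 4.06 in hepatocytes, at least 3.52-fold lower. Wnt2 and Wnt9b fell by 0.67 and 0.49. The Wnt2 call was lost without mouse 2 or 3 (adjusted p = 0.11 at most) and the Wnt9b call without mouse 1 or 3 (0.072 at most). The BMP ligands of non-parenchymal cells, Gdf2, Bmp10 and Bmp2, fell by 2.32, 1.49 and 1.26. Their hepatocyte target Id1 rose by 0.82 ± 0.11, and Hamp and Smad7, further targets, did not pass. Portal genes that rose were G6pc (0.82), Psph (0.81) and Cdh1 (0.54, lost without mouse 1 or 3, 0.0802 at most). Cps1, Arg1, Pck1 and Cyp2f2 gave -0.01, 0.02, 0.14 and 0.08.

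Drug-metabolising enzymes were near the background: of 62 measured, 6 were higher (1, 3 and 5 without mouse 1, 2 and 3) and 7 lower (5, 6 and 4), or 9.68% and 11.3%. Fmo2, a flavin monooxygenase, fell from 6.97, 6.28 and 7.50 to 4.42, 4.93 and 4.30 (5.15-fold, adjusted p = 0.00349), and Nnmt by 1.60. Cyp3a11, Cyp2d9, Ugt2b1 and Ces3a differed by 0.03 or less. For bile acid synthesis and transport 4 of 37 were higher (3, 2 and 2) and 4 lower (3, 4 and 1). At 10.8% each, these shares were near the 9.28% and 11.6% of all genes. Slc51b, a basolateral bile acid exporter subunit, was at least 2.00-fold higher. Nr0b2, Nr1h4 and Cyp7a1 also stand in this list and are given above. Bile acid receptor activity was not tested. Cyp8b1 rose by 0.47, a call lost without mouse 2 or 3 (adjusted p = 0.104 at most). The uptake transporter Slc10a1 and the canalicular pump Abcb11 gave 0.03 and 0.26.

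Lipid genes rose in part. Of 27 measured lipogenesis genes 8 were higher (4, 5 and 5 without mouse 1, 2 and 3) and 2 lower, with a median of 0.22. The share higher was 29.6%, against 9.28% of all genes. Acly, which makes cytosolic acetyl-CoA, read 8.59, 8.80 and 8.52 in liver and 9.63, 9.81 and 9.68 in hepatocytes, 2.10-fold higher (adjusted p = 0.00102). Acacb, the acetyl-CoA carboxylase that restrains fat oxidation, rose 2.00-fold. The lipins rose, Lpin2 by 0.79 and Lpin1 by 1.19, the second with its call lost without mouse 1 (adjusted p = 0.0816) and a difference of 0.68 without mouse 2. Srebf1, a transcription factor of lipogenesis, fell by 0.89 ± 0.11 and the desaturase Scd2, which other liver cells express, by 1.86. Fasn, Scd1 and Acaca gave 0.20, 0.07 and 0.17. For cholesterol synthesis 8 of 21 (38.1%) were higher (5, 5 and 3) and none lower. Among them Hmgcs1 rose by 0.74 (lost without mouse 1 or 3, 0.0731 at most), Pmvk by 0.74, Lss by 0.71 and Dhcr7 by 0.71 (lost without mouse 3, 0.059), and Sqle, Idi1 and Cyp51 gave -0.24, 0.09 and 0.23.

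Of 37 genes of fatty acid oxidation and PPAR-alpha response, 8 were higher (4, 5 and 10 without mouse 1, 2 and 3) and 1 lower. The share higher was 21.6%, against 9.28% of all genes. Pdk4, the kinase that blocks pyruvate oxidation in fasting, read 5.31, 5.34 and 5.21 in liver and 6.74, 6.82 and 6.47 in hepatocytes, 2.62-fold higher (adjusted p = 0.00052). Angptl4, a lipoprotein lipase inhibitor, rose 2.50-fold and the fasting hormone Fgf21 at least 2.02-fold. Acot3, the lower member, read 3.92, 3.85 and 6.43 in liver, so that the liver of mouse 3 stood apart, and its difference of -1.62 was -0.81 without that mouse. Cpt1a, Acadm and Hadhb gave -0.11, -0.01 and 0.16. In glucose metabolism 6 of 32 were higher and 3 lower (18.8% and 9.38%, against 9.28% and 11.6% of all genes). The insulin receptor substrate Irs2 rose from 5.33, 5.85 and 6.24 to 7.01, 6.91 and 7.06 (2.28-fold, adjusted p = 0.00462) and G6pc, the last enzyme of glucose release, by 0.82 ± 0.13. Ppp1r3c rose by 1.10, a call lost without mouse 3 (0.0798). Pck1, Gys2 and Slc2a2 gave 0.14, 0.10 and -0.07, and Hk1 and Pkm, the isoforms of non-parenchymal cells, fell by 0.77 and 0.71.

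Of 32 unfolded protein and ATF4 response genes 6 (18.8%) were higher (0, 3 and 3 without mouse 1, 2 and 3) and 2 (6.25%) lower (1 in each case). Herpud1, Sdf2l1 and Manf rose by 0.69, 0.57 and 0.52, Trib3 was at least 1.69-fold higher, and Xbp1 fell by 0.62. Each of these 5 calls was lost without at least 2 of the 3 mice (adjusted p up to 0.0939, 0.144, 0.107, 0.0644 and 0.0753). Hspa5, Atf4 and Asns gave 0.26, -0.23 and -0.26 and did not pass. NRF2 and glutathione genes gave 5 higher of 33 (2, 3 and 2), or 15.2%. They were led by Osgin1 at 0.78 (lost without mouse 3, 0.0555) and Trib3 at 0.76, which also stands in the list before. Pgd followed at 0.56 (lost without mouse 2, 0.0681) and Gclc at 0.53 (lost without mouse 1 or 3, 0.076 at most). Nqo1, Srxn1 and Gclm gave 0.11, 0.02 and 0.00. Of apoptosis regulators 6 of 22 (27.3%) were lower (3, 2 and 3) and 2 (9.09%) higher (0, 0 and 2). Bcl2 and Apaf1 were at least 2.76-fold and 2.84-fold lower, and Bcl2l1, which encodes BCL-XL, rose by 0.66, a call lost without mouse 1 or 2 (0.0651 at most). Of 35 cell cycle genes 3 were higher (1, 2 and 3) and 3 lower (1, 5 and 2), and Mki67, Top2a and Ccnb2 did not pass. These shares of 8.57% each were near the 9.28% and 11.6% of all genes. Of 57 cytosolic ribosomal proteins none was higher and 1 lower (Rplp2, dim in both tissues and lost without mouse 3, 0.069). Of 50 respiratory chain subunits 4 were higher (1, 1 and 4) and none lower, and the 8% higher was near the 9.28% of all genes.

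Of 16 measured clock genes 4 were higher in hepatocytes (4, 3 and 4 without mouse 1, 2 and 3) and 2 lower (2, 5 and 0), while 10 did not pass, and the list median was -0.03, or 0.15 with array medians centred. The shares higher and lower were 25% and 12.5%, against 9.28% and 11.6% of all genes. Npas2, a partner of the activator arm, read 6.04, 6.20 and 3.32 in liver and 7.18, 7.60 and 7.12 in hepatocytes, a rise of 2.11 ± 0.47, at least 4.32-fold (adjusted p = 0.0231), and 1.27 without mouse 3. Arntl (Bmal1) read 6.68, 6.88 and 4.55 in liver and 7.46, 7.78 and 7.43 in hepatocytes (1.52, 2.87-fold, adjusted p = 0.0343), a difference of 0.84 without mouse 3. Both genes rose in each mouse, and both were lowest in the liver of mouse 3. Ciart, a repressor of the loop, ran the opposite way, with 7.05, 5.25 and 8.32 in liver and 4.13, 4.92 and 4.01 in hepatocytes. Its fall of 2.52 ± 0.64 (adjusted p = 0.036) was lost without mouse 1 or 3 (0.121 at most), and the difference was -1.62 without mouse 3. Per3 and Per2 were also highest in the liver of mouse 3, at 7.16 and 6.91, and did not pass (adjusted p = 0.0826 and 0.0753). Per1 read 6.11, 4.95 and 6.21 in liver, highest in mouse 3 but close to mouse 1, and did not pass. Per1, Per2 and Per3 were each lowest in the liver of mouse 2. Nfil3 rose by 1.03 ± 0.14. Cry1, a repressor of the loop, rose by 0.88, a call lost without mouse 2 or 3 (adjusted p = 0.0942 at most, 0.46 without mouse 2). Bhlhe41 was dim in all 3 hepatocyte arrays and 2 livers and fell by 0.73, a size that is not exact, with its call lost without mouse 3 (0.0675). The livers of the 3 mice spanned 2.87 for Npas2, 2.33 for Arntl and 2.70 for Per3, and the hepatocytes 0.48, 0.35 and 0.29. Cry1 and Nr1d2 showed the reverse, with hepatocytes of mouse 2 apart at 7.28 and 6.25. The labels used here give no collection times, and their part in these differences was not tested.

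**Figure D5:**
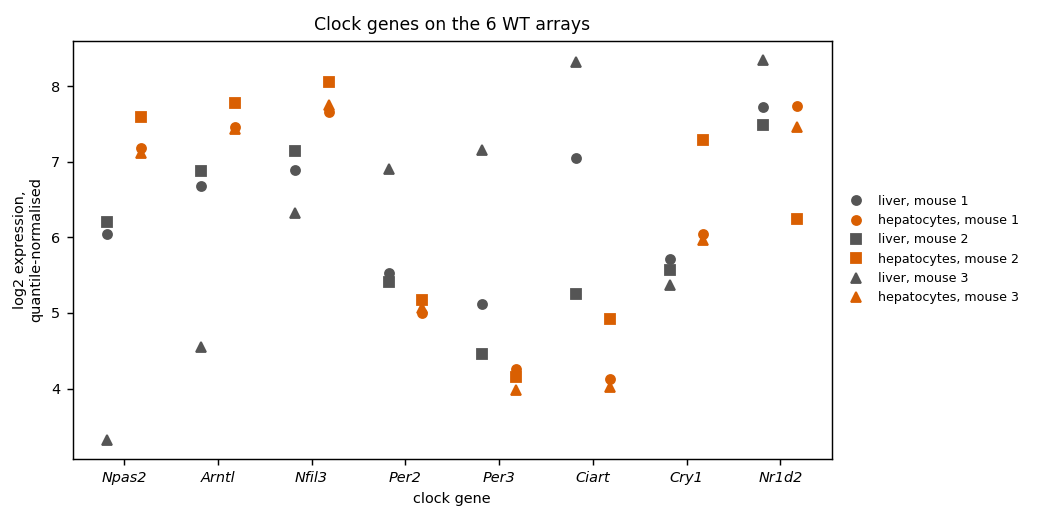
Log2 expression (quantile-normalised, y axis) of 8 clock genes on the 6 WT arrays, grey for liver and orange for hepatocytes, with a symbol for each mouse. The liver of mouse 3 (grey triangle) is lowest for Npas2 (3.32) and Arntl (4.55) and highest for Per3 (7.16) and Ciart (8.32).

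For Mapk8 and Mapk9, the genes targeted in the series, no difference between the WT tissues passed the test. Mapk8 read 6.06, 6.04 and 6.01 in liver and 5.98, 5.87 and 5.98 in hepatocytes (-0.09 ± 0.10, adjusted p = 0.536), and Mapk9 8.35, 8.39 and 8.30 against 8.39, 8.05 and 8.34 (-0.09 ± 0.12, adjusted p = 0.613).

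The same contrast in JNKΔhepa mice, with no array in common and normalised apart, gave 5173 calls (27.5%), 2436 higher and 2737 lower. Of the 3927 WT calls 3858 (98.2%) had the same sign there, against 79.6% of all genes. Called in the same direction in both genotypes were 2930 genes, 74.6% of the WT calls and 56.6% of the JNKΔhepa calls, and 9 were called in opposite directions. Of the 698 WT calls of at least 2-fold, 692 had the same sign and 674 were called. Fos, Jun and Egr1 rose by 2.93, 2.71 and 3.65 in JNKΔhepa hepatocytes, and Slc1a2, Lrat and Stab2 fell by 2.98, 1.90 and 1.46. The test of the difference between genotypes on all 12 arrays (limma interaction with mouse as a block) called 0 of 18820 genes, with 1391 at an unadjusted p under 0.05 and a smallest adjusted p of 0.157, and its alternatives called 0 to 2.

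Several genes had unequal values in the genotypes without passing that test. Ccn1 rose by 1.33 in WT and gave -0.14 in JNKΔhepa (difference -1.49 ± 0.22, adjusted p = 0.169). Socs2, a target of growth hormone, read 8.15, 8.98 and 8.24 in WT liver and 7.47, 7.25 and 7.07 in WT hepatocytes, a fall of 1.19, and rose by 1.42 in JNKΔhepa (difference 2.61 ± 0.54, adjusted p = 0.371). Orm2 fell by 1.71 in WT and gave -0.15 in JNKΔhepa (adjusted p = 0.443), and Saa2 fell by 2.40 against -0.65 (0.688). The zinc transporter Slc39a2 fell by 0.49 in WT, a call lost whichever mouse was left out (0.159 at most), and by 2.10 in JNKΔhepa (difference -1.59 ± 0.24, adjusted p = 0.17). These 5 genes were chosen after their values were seen.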

How the data were processed

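The deposited table holds log2 expression values of 35556 probe sets on 12 whole-transcript arrays (biotin-labelled total RNA), made by the authors with RMA, per the submitters' processing notes. For software, version and whether tissues were processed apart, details were not given in the sources used here; a log2 scale was inferred from the value range. Quantiles agree within each tissue and differ between tissues, so quantile normalisation over the 6 WT arrays fixes the share of rising and falling genes in part. Probe sets with 1 gene symbol in the platform annotation (21218) were used, 1881 with several symbols and 12457 without a name were left out, and each of the 18820 genes is represented by its probe set with the highest mean. 1386 genes had more than 1 probe set.

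Hepatocytes minus liver was fitted with limma 3.58.1 in R 4.3.3 (lmFit, eBayes, two-sided, Benjamini-Hochberg), mouse as a block. Residual degrees of freedom were 2, with 4.72 from the prior. After subtracting group means, same-mouse arrays correlated at -0.04, 0.05 and 0.06; the pairing comes from the mouse identifiers. The difference between genotypes was an interaction on 12 arrays. Both fits were tested on simulated data. Gene lists (42, 1240 of 1377 entries measured) and markers are described by counts and medians without a list test. Members and lists were chosen with earlier results of these data known. Named genes were the 20 largest rises and falls whose arrays do not overlap (without predicted genes, RIKEN clones, small RNAs, olfactory and vomeronasal receptors, pseudogenes and antigen receptor segments), all markers, up to 4 called members of each list in each direction (or the smallest p where none passed), Mapk8, Mapk9, and genes passing the interaction; further list members are given as examples. Alternatives were no block, array medians centred, cyclic loess, 12 arrays together, dim genes left out, probe sets averaged, a trended robust prior and each mouse left out. A scaling with the median gene difference set to 0 was chosen after seeing the data. Promoter windows came from RefSeq (GRCm38.p6).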

Additional observations from a re-analysis of the deposited data

Results flagged for a closer look

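For Ndrg1 and Snai2 every WT mouse moved one way and every JNKΔhepa mouse the other. Ndrg1, a stress and differentiation gene, rose by 0.95 in WT hepatocytes (6.71, 6.76 and 6.37 in liver, 7.75, 7.31 and 7.63 in hepatocytes) and gave -0.56 in JNKΔhepa, a difference between genotypes of -1.51 ± 0.28 (limma interaction, unadjusted p = 0.000479, adjusted p = 0.274). Snai2, a transcriptional repressor, rose by 0.51 in WT and fell by 0.45 in JNKΔhepa, a difference of -0.97 ± 0.14 (unadjusted p = 7.21e-05, adjusted p = 0.169). Neither difference passed the threshold over all genes, and the WT call of Snai2 was lost without mouse 1 or 2 (adjusted p = 0.0596 at most).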

How the results depend on the processing

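Without the replicate block 4299 genes were called, 3661 of them shared with the 3927 of the blocked fit, and 16 of the 256 named genes lost their call. Cyclic loess, 12 arrays together, averaged probe sets, the trended robust prior and the median gene difference set to 0 gave 3934 to 4922 calls, all within 1.5 times. Centred array medians gave 9590 calls, 7816 of them higher. Leaving dim genes out (10191 tested) gave 1824, of which 725 were higher and 1099 lower. Leaving out 1 mouse gave 2217 to 2511 calls, 734 to 932 higher and 1402 to 1579 lower, from 2 mice each. Of 424 called list members and named genes 277 kept their call without each mouse in turn. The genotype difference gave 0 calls, 2 without the block, 2 on deposited values not renormalised and 0 to 2 with a mouse left out. Direction turned with centred medians for Alb (0.64), Apoa1 (0.67), Apob (0.55), Cps1 (0.68), Retnlg (0.37) and Dnaja1 (0.0028), and with the median gene difference at 0 for Alb (0.38), Apoa1 (0.41) and Cps1 (0.42). Of 42 list medians, 35 moved by more than the spread between mice with centred medians and 12 changed sign, and 19 moved and 4 changed sign with the median gene difference at 0. Leaving out 1 mouse changed the sign of 4 or 5. The tissue offset depends on intensity: the 10th percentile was 2.12 in liver and 1.67 in hepatocytes, the median 4.09 and 3.26, and the 99th 11.5 and 11.1. The cause of that offset was not tested.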

Other observations

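Small nucleolar RNAs, which guide the modification of ribosomal RNA and were outside the naming rule, were higher in WT hepatocytes for 23 of 60 measured and lower for 3, with a median difference of 0.28. In JNKΔhepa they were higher for 29 and lower for 4 (median 0.49). Over all genes 9.28% were higher and 11.6% lower in WT, and 12.9% and 14.5% in JNKΔhepa. Of 14 immunoglobulin segments 8 were lower and none higher in WT (median -0.57), and 9 were lower in JNKΔhepa. Of 306 microRNA genes 35 were higher and 41 lower in WT, with a median of 0.05. The RNA preparation is a total RNA kit per the labels, and its part in these values was not tested.

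The metallothioneins Mt1 and Mt2 bind zinc and answer to stress and glucocorticoids. Both were higher in hepatocytes than in liver in mouse 2 and lower in the other mice. Mt2 read 11.59, 9.56 and 11.86 in the WT livers and 9.58, 11.51 and 9.62 in hepatocytes, and Mt1 9.60, 7.99 and 10.35 against 8.86, 9.98 and 8.91. Mouse 2 was the lowest of the livers and the highest of the hepatocytes for both genes, and neither passed the test (adjusted p = 0.503 and 0.951).

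The liver of mouse 3 stood apart outside the clock genes too. Rgs16, a regulator of G protein signalling, read 5.15, 4.15 and 8.46 in liver and 9.02, 8.08 and 8.92 in hepatocytes (2.75 ± 0.63, adjusted p = 0.0255), a call lost without mouse 1 or 2 (0.0985 at most) and a difference of 3.90 without mouse 3. Chka, choline kinase, read 7.63, 7.72 and 5.73 in liver and 8.34, 8.61 and 8.51 in hepatocytes (1.46 ± 0.37, adjusted p = 0.0362), or 0.80 without mouse 3. Cyp2b9, an enzyme of mouse liver with higher levels in females, read 2.55, 2.67 and 7.95 in liver and 6.47, 5.12 and 6.43 in hepatocytes of these male mice and did not pass (adjusted p = 0.243).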
